A study of Mus musculus with 16 samples.

Results

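The mouse Schlafen genes are a small family of 7 members in this report, Slfn1, Slfn2, Slfn3, Slfn4, Slfn5, Slfn8 and Slfn9, followed across microglia sorted from the brains of Ercc1 knockout and control mice. Members were the gene lines of the count files that carry one of these symbols, and 7 of 53700 lines did. Each symbol matched a single Ensembl gene. The symbols alone chose the members, with no expression value in the rule.

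RNA came from 16 libraries in 4 groups of 4. They were 6-week-old Ercc1 KO mice, 6-week-old WT mice, 12-week-old Ercc1 KO mice and 12-week-old WT mice, all on a C57Bl6J/FVB cross. The labels give the genotype as ko or wt and name no allele, Cre driver or further agent. ERCC1 is part of a DNA-cutting repair nuclease, and mice that lack it are described in the series as aging early. Each 6-week group held 2 males and 2 females, and each 12-week group held 3 males and 1 female. Cells were taken from the whole brain by flow cytometry as DAPI-negative, CD11b-high, CD45-intermediate and Ly6c-negative. Nothing in the labels says whether a library holds 1 animal or several, and 1 of the 12-week WT libraries is numbered 5_6. The p values therefore measure the spread between these libraries.

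Schlafen proteins share a conserved core domain. In mice they fall into short forms (Slfn1 and Slfn2), intermediate forms (Slfn3 and Slfn4) and long forms with a helicase-like part (Slfn5, Slfn8 and Slfn9). Several family members are induced by type I interferon in immune cells, and human relatives act on tRNA, on stalled replication forks and on viruses. Interferon acts through receptors that switch on a complex that holds STAT2 and IRF9 and binds a DNA element called ISRE, and IRF7 amplifies the response.

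The members lie together on chromosome 11, and the order along it in the GENCODE M21 annotation is Slfn5, Slfn9, Slfn8, Slfn2, Slfn1, Slfn4 and Slfn3. Promoter windows from RefSeq on build GRCm38.p6 cover 250 bases before each annotated start site and 50 from it onwards, while the counts were made on GRCm39. All 7 members matched a window, and Slfn8 matched 2. The windows of the 4 members that the counts turn on are shown here, read 5′ to 3′ in the direction of the gene. Capitals mark matches to the ISRE core, searched on both strands as GAAA, any 2 bases, then GAAA.
Slfn5 (chr11:82951852-82952151, plus strand): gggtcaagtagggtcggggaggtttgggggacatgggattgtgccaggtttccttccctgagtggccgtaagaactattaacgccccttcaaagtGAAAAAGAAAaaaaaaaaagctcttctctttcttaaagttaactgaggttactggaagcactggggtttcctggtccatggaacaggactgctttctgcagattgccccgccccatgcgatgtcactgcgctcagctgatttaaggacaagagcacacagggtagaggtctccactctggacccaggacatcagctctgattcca
Slfn9 (chr11:82991781-82992080, minus strand): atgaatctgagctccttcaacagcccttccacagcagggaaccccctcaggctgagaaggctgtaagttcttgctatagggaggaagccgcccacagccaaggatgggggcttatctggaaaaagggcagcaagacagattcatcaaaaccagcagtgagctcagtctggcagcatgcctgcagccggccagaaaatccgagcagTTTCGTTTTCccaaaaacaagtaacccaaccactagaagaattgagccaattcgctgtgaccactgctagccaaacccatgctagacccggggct
Slfn8 (chr11:83020761-83021060, minus strand): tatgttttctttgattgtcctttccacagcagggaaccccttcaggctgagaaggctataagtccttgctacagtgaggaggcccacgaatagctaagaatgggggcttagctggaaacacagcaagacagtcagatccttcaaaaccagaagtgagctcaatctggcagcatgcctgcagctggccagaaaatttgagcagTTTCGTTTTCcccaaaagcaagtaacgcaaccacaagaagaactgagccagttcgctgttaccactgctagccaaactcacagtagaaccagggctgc
Slfn2 (chr11:83064862-83065161, plus strand): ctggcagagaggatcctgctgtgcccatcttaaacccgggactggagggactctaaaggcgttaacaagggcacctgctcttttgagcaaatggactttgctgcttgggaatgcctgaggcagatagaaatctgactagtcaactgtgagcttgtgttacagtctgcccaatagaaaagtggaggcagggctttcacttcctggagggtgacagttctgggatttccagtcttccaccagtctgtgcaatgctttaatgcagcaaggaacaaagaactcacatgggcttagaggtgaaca
The match lay at bases -155 to -146 from the start site in Slfn5, at -45 to -36 in Slfn9 and at -48 to -39 in Slfn8. The second Slfn8 window, which belongs to a start site nearby, held the same match at -136 to -127. The windows of Slfn1, Slfn2, Slfn3 and Slfn4 held none. Among all 32851 RefSeq windows of this length 3.44% held the ISRE core, and at least 1 window held it in 3.99% of 27025 genes. Of 29 interferon-stimulated genes listed for comparison and found in the files, 21 had a window under the same symbol, and 14 of these 21 held it. A second interferon element, GAS, searched on both strands as TTC, any 3 bases, then GAA, was in no member window and in 8.30% of all windows. Slfn8 and Slfn9 had near copies of each other in this stretch, with 80.7% identical columns in a global alignment. The other 20 pairs of members ranged from 42.3% to 50.3%. A match describes letters in the window and is not evidence that a factor binds there.

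At 6 weeks the libraries held 9885121 to 17499408 counts in KO and 8250645 to 13278797 in WT. At 12 weeks they held 7882182 to 9653663 counts in KO and 9045823 to 22142972 in WT. Levels are given as CPM, the count scaled to a common library size, with mean and SD over 4 libraries. Ercc1, the targeted gene, averaged 3.63 ± 0.80 CPM in 6-week KO and 18.8 ± 7.91 CPM in 6-week WT. At 12 weeks it averaged 4.28 ± 2.80 CPM in KO and 20.7 ± 19.2 CPM in WT. The highest KO library lay below the lowest WT library at both ages, although the adjusted p of edgeR's quasi-likelihood test was 0.21 at 6 weeks and 0.11 at 12 weeks. The 10 microglia markers summed to 57550 to 67630 CPM in 6-week KO and 68260 to 75120 CPM in 6-week WT. At 12 weeks they summed to 50200 to 52330 CPM in KO and 61840 to 68890 CPM in WT. The sums did not overlap between genotypes at either age, and none of the markers was at 0 in any group. Of these 10 markers, P2ry12 fell in KO by 0.40 on the log2 scale at 6 weeks and by 0.81 at 12 weeks, and Cx3cr1 fell by 0.48 at 12 weeks. The 12-week WT libraries 3 and 8 stood apart in an earlier analysis of these data, and results at this age are given without them where this ended a call or moved a count. Ercc1 at 12 weeks had an adjusted p of 0.36 without them.

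Differences between genotypes were tested with edgeR's quasi-likelihood test on 17090 genes, with Benjamini-Hochberg adjustment over all of them and a threshold of 0.05. Counts were high enough to test 6 of the 7 members, and Slfn4 had no count in any of the 16 libraries. At 6 weeks 1 of the 6 tested members rose in KO, namely Slfn2, where 0.796% of all tested genes rose. At 12 weeks 3 of the 6 rose, namely Slfn2, Slfn5 and Slfn8, where 2.03% of all tested genes rose. None fell at either age. At an unadjusted p under 0.05, in either direction, the numbers were 4 at 6 weeks, where 7.31% of all tested genes passed, and 5 at 12 weeks, where 14.4% did. Slfn1 and Slfn5 are in these numbers at both ages, and both were kept for testing through their KO libraries. Slfn1 had counts in KO libraries alone, so its direction was fixed once it was kept. Their place in these counts is therefore not independent support. Without 12-week WT libraries 3 and 8, which left 2 WT libraries at that age, Slfn2 and Slfn5 were called at 12 weeks. In bulk RNA, fewer cells of a type and less RNA per cell cannot be told apart.

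**Figure D1:**
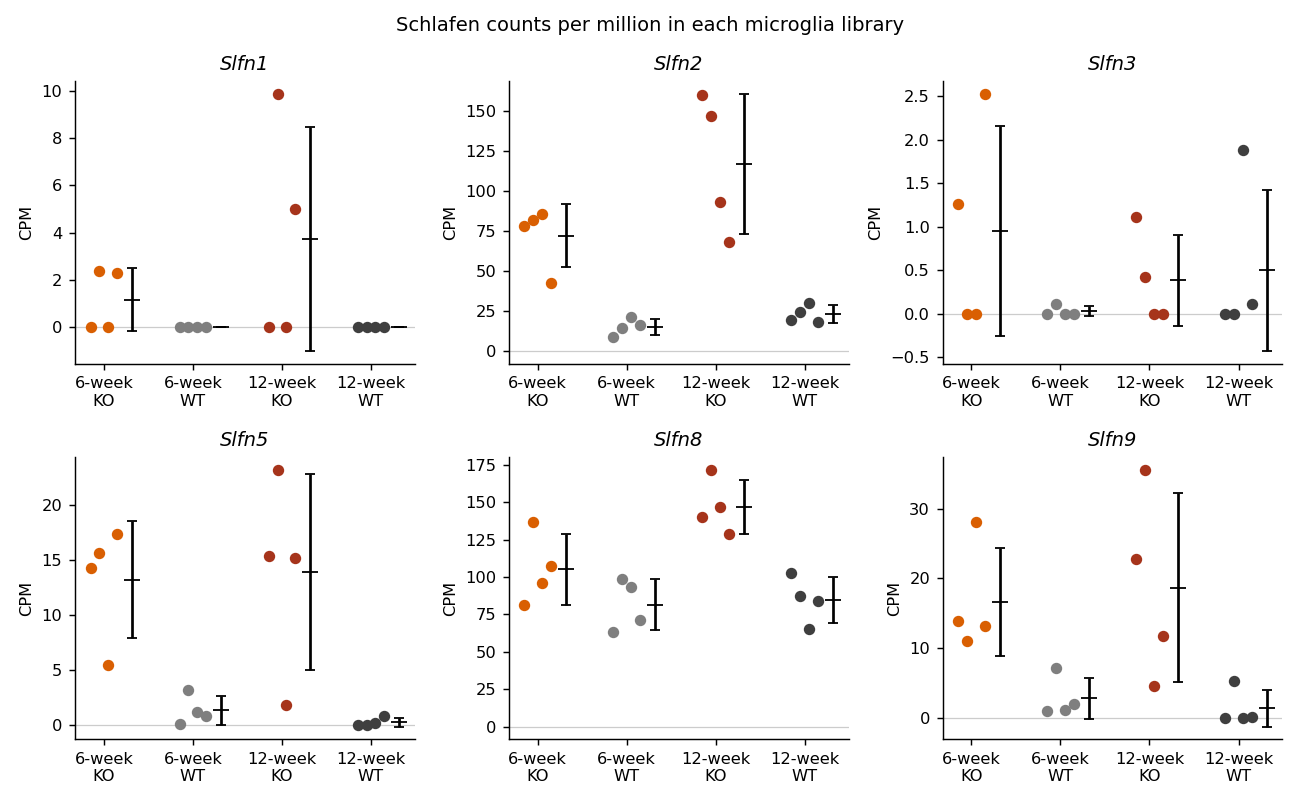
CPM of the 6 members with any count, one panel per gene, for the 4 libraries of each group (points) with the group mean and SD (bar beside them). Slfn2 KO libraries lie between 42.8 and 160 CPM, above every WT library of the same age, while Slfn1 has counts in 2 KO libraries at each age and in no WT library.

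Slfn2, a short member that keeps mouse T cells quiescent and protects their tRNAs from cleavage, rose in KO at both ages. In 6-week KO it had 77.9, 82.3, 85.7 and 42.8 CPM, against 8.41, 14.2, 21.2 and 15.9 CPM in 6-week WT. Every KO library stood above every WT library, and replicate 4 was the lowest of the KO libraries. The means were 72.2 ± 19.9 CPM in KO and 14.9 ± 5.27 CPM in WT, a 4.84-fold difference. The log2 fold change was 2.27 ± 0.34 (SE) with an edgeR adjusted p of 0.0021.

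At 12 weeks Slfn2 had 160, 147, 93.2 and 68.2 CPM in KO, against 19.3, 24.3, 30.3 and 18.0 CPM in WT. The groups again did not overlap. The means were 117 ± 43.7 CPM in KO and 23.0 ± 5.57 CPM in WT, a 5.10-fold difference, with a log2 fold change of 2.35 ± 0.33 and an edgeR adjusted p of 0.00075. Each of the 16 fits that left out 1 library kept Slfn2 past the threshold at both ages. Without 12-week WT libraries 3 and 8 the log2 fold change was 2.07 with an adjusted p of 0.024.

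Slfn1, the other short member, which slows the growth of mouse thymocytes when it is overexpressed, was read only in KO libraries. It had 0, 41, 0 and 40 counts in the 4 libraries of 6-week KO and 0, 93, 0 and 40 counts in those of 12-week KO, against 0 counts in all 8 WT libraries. Replicates 2 and 4 held all of its counts at both ages, and at 6 weeks these are also the 2 deepest KO libraries. By counts pooled over each group's summed library size, with a floor of 3 counts for the WT group, KO was at least 19.3-fold higher at 6 weeks and at least 65.2-fold higher at 12 weeks. With 2 of the 4 libraries of each KO group at 0, neither difference passed the test (edgeR adjusted p = 0.66 at 6 weeks and 0.25 at 12 weeks).

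Slfn5 is a long member whose human relative represses viral and cellular transcription. In 6-week KO it had 14.2, 15.6, 5.44 and 17.4 CPM, against 0.108, 3.20, 1.19 and 0.850 CPM in 6-week WT. The groups did not overlap, but the test did not pass, with a log2 fold change of 3.12 ± 1.03 and an edgeR adjusted p of 0.32. In 12-week KO it had 15.4, 23.2, 1.85 and 15.2 CPM, against 0, 0, 0.219 and 0.844 CPM in 12-week WT. The KO library at 1.85 CPM was the female one and stood far below the other three, yet it was above every WT library. The 12-week means were 13.9 ± 8.85 CPM in KO and 0.266 ± 0.399 CPM in WT, with a log2 fold change of 5.65 ± 1.16 and an edgeR adjusted p of 0.013. The WT side of this fold rests on 13 counts in the whole group, so its size is loosely set. Without 12-week WT libraries 3 and 8 it was 6.62 with an adjusted p of 0.041.

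An antisense transcript, Slfn5os, overlaps Slfn5 over 559 exon bases, 50.7% of its own exons. It was chosen after its values were seen and is no member. It had 46 counts in 12-week KO and 0 in 12-week WT, at least 22.5-fold higher in KO by pooled counts with the same floor, with an edgeR adjusted p of 0.15. The strand setting of the counting is not given in the sources used here, so reads from Slfn5 and Slfn5os cannot be told apart where they overlap.

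Slfn8, one of the mouse long members related to human SLFN11 and SLFN13, had more counts than any other member in every WT library. The same held in every KO library except 12-week KO replicate 1, where Slfn2 had more. In 6-week KO it had 81.0, 137, 96.0 and 107 CPM, against 63.1, 98.8, 93.3 and 71.0 CPM in 6-week WT. These groups overlapped, and the log2 fold change of 0.38 ± 0.16 had an edgeR adjusted p of 0.57. In 12-week KO it had 140, 172, 147 and 129 CPM, against 102, 87.5, 65.0 and 83.9 CPM in 12-week WT. Here every KO library was above every WT library. The means were 147 ± 18.2 CPM in KO and 84.7 ± 15.4 CPM in WT, a log2 fold change of 0.81 ± 0.16 with an edgeR adjusted p of 0.011. This call was lost in a fit of the 8 libraries of this age alone (adjusted p = 0.065) and without 12-week WT libraries 3 and 8 (adjusted p = 0.064).

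Slfn9, the long member next to Slfn8, was uneven between the libraries of a group. In 6-week KO it had 13.9, 11.04, 28.05 and 13.2 CPM, against 0.970, 7.19, 1.11 and 1.94 CPM in 6-week WT. The groups did not overlap, with a log2 fold change of 2.54 ± 1.23 and an edgeR adjusted p of 0.72. In 12-week KO it had 22.7, 35.6, 4.55 and 11.8 CPM, against 0, 5.22, 0 and 0.106 CPM in 12-week WT. The lowest KO library, again the only female one of its group, fell below the highest WT library. In 6-week KO the female libraries had both the lowest value, 11.04 CPM, and the highest, 28.05 CPM. The 12-week log2 fold change of 3.83 ± 1.30 had an edgeR adjusted p of 0.15. Without 12-week WT replicate 4, the library at 5.22 CPM, the log2 fold change was 9.05 with an adjusted p of 0.0018, on a WT side left with 1 count. Without any other single library the log2 fold change was 3.32 to 4.18 and the adjusted p 0.14 to 0.30. Without 12-week WT libraries 3 and 8 it was 2.88 with an adjusted p of 0.41.

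The intermediate members were at or near the limit of detection. Slfn3, which is tied to gut epithelial differentiation in rats, had 13, 0, 0 and 44 counts in 6-week KO against 0, 1, 0 and 0 counts in 6-week WT. At 12 weeks it had 11, 4, 0 and 0 counts in KO against 0, 0, 43 and 1 counts in WT. The single WT library with 43 counts is the one numbered 5_6, the deepest of the series. The pooled count ratio of KO over WT at 6 weeks was 40.8 with a counting interval of 7.03 to 1638, and neither age passed the test. Slfn4, a gene of myeloid cells and activated macrophages, had 0 counts in every library, which allows a level of up to 0.0847 CPM over a group of 4 by the floor of 3 counts. These floors and intervals cover counting error only.

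Groups that do not overlap are common enough that all genes give the background. At 6 weeks every KO library was above every WT library for Slfn2, Slfn5 and Slfn9, and for 4.92% of all tested genes. At 12 weeks this held for Slfn2, Slfn5 and Slfn8, and for 5.13% of all tested genes. Slfn5 was among the tested genes through its KO libraries.

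**Figure D2:**
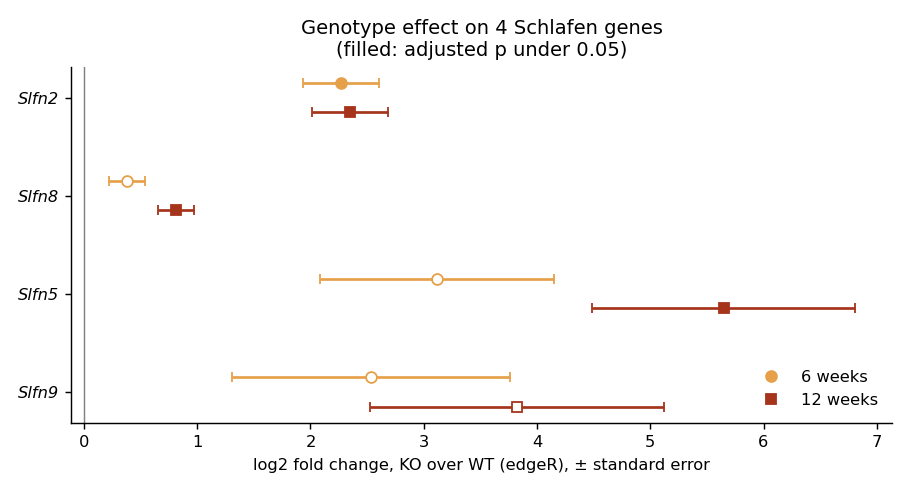
Log2 fold change of KO over WT with its standard error for the 4 members with a mean of at least 5 CPM, at 6 weeks (circles) and 12 weeks (squares), filled where the adjusted p was under 0.05. Slfn2 is near 2.3 at both ages, Slfn8 is below 1 at both, and the Slfn5 and Slfn9 estimates are larger with wide errors.

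The age of the animals was compared within each genotype and between them. No member differed between 12-week and 6-week KO (0.0234% of all tested genes did) or between 12-week and 6-week WT (0.0117% did). At an unadjusted p under 0.05 there were 2 members in KO, where 8.8% of all tested genes passed, and 1 in WT, where 7.44% did. DESeq2 called 1 member in KO, Slfn8, with an adjusted p of 0.025. Slfn8 averaged 147 ± 18.2 CPM in 12-week KO and 105 ± 23.6 CPM in 6-week KO (log2 0.58 ± 0.17, edgeR adjusted p = 0.25), against 84.7 ± 15.4 CPM in 12-week WT and 81.5 ± 17.2 CPM in 6-week WT (log2 0.14 ± 0.17). Slfn2 averaged 117 ± 43.7 CPM in 12-week KO and 72.2 ± 19.9 CPM in 6-week KO (log2 0.76 ± 0.33, edgeR adjusted p = 0.53), against 23.0 ± 5.57 CPM in 12-week WT and 14.9 ± 5.27 CPM in 6-week WT (log2 0.68 ± 0.34, edgeR adjusted p = 0.70). The difference of the genotype effects, 12 weeks minus 6 weeks, was called for no member and for 0.00585% of all tested genes, with 0 members and 4.74% of all tested genes at an unadjusted p under 0.05. It was 0.08 ± 0.46 on the log2 scale for Slfn2, 0.43 ± 0.23 for Slfn8, 2.53 ± 1.42 for Slfn5 and 1.29 ± 1.67 for Slfn9. Slfn5 passing the threshold at 12 weeks and not at 6 weeks is therefore not shown to be a difference between the ages.

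Levels per kilobase of exon allow members to be compared with each other. In 12-week KO the order was Slfn2 at 70.4 ± 26.3, Slfn8 at 35.9 ± 4.44, Slfn9 at 3.13 ± 2.27, Slfn5 at 2.19 ± 1.40 and Slfn1 at 1.998 ± 2.54 CPM per kb, and the last 3 did not differ beyond their spread. In 12-week WT it was Slfn8 at 20.7 ± 3.77, Slfn2 at 13.8 ± 3.35, Slfn9 at 0.223 ± 0.435 and Slfn5 at 0.0420 ± 0.0631 CPM per kb. Slfn2 and Slfn8 thus changed places per kb. In CPM, which is not divided by exon length, Slfn8 stayed above Slfn2 in every library except 12-week KO replicate 1. Per kb, Slfn2 was the highest member in 7 of 8 KO libraries and in 1 of 8 WT libraries, and Slfn8 was the highest in the others. The exceptions were 6-week KO replicate 4 and the 12-week WT library numbered 5_6.

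The family as a whole summed to 74.9 ± 12.7 CPM per kb in 6-week KO and 29.6 ± 7.02 in 6-week WT. At 12 weeks the sum was 114 ± 32.4 CPM per kb in KO and 34.9 ± 2.46 in WT. Slfn2 made up 57.2% ± 9.95 of the sum in 6-week KO and 29.9% ± 6.11 in 6-week WT, and 60.7% ± 7.64 in 12-week KO and 39.5% ± 9.25 in 12-week WT. Slfn8 made up 34.8% ± 7.87 in 6-week KO and 67.9% ± 5.49 in 6-week WT, and 33.0% ± 7.22 in 12-week KO and 59.3% ± 9.98 in 12-week WT. On the log2 scale the ratio of Slfn2 to Slfn8 in CPM was higher in KO by 1.93 at 6 weeks and by 1.49 at 12 weeks. This pair was picked after the values were seen, so it is given with no test.

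**Figure D3:**
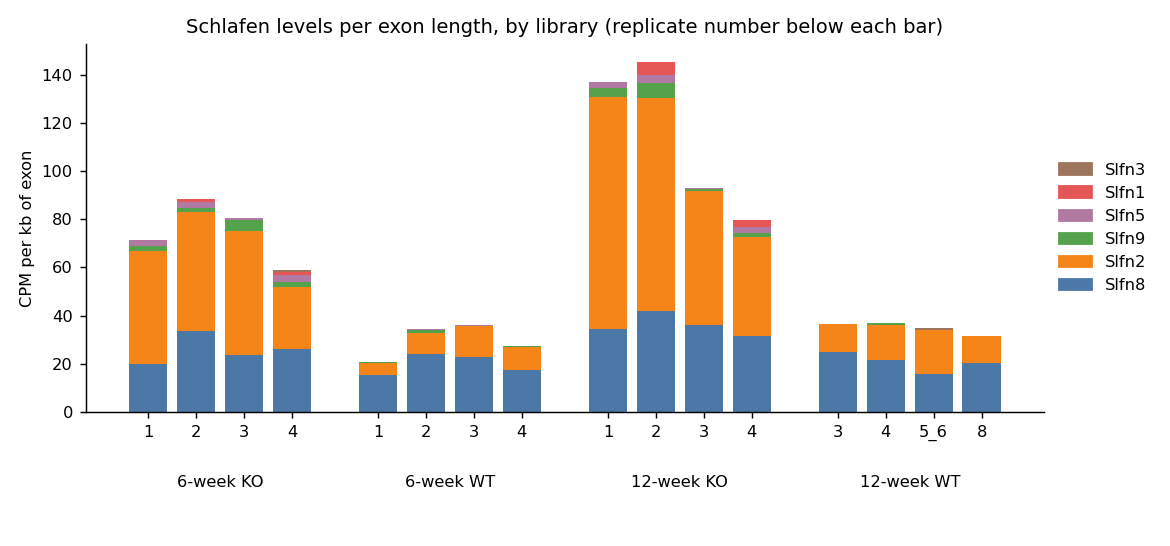
CPM per kilobase of exon in each library, stacked by member, with the replicate number under each bar and KO groups left of the WT group of the same age. The KO bars reach 58.8 to 145.5 CPM per kb and are mostly Slfn2, and the WT bars reach 20.7 to 36.9 and are mostly Slfn8 except in the library numbered 5_6.

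Close copies limit how exactly reads can be placed. In the GENCODE M21 transcripts 14.6% of the 50-base windows of Slfn8 and 11.2% of those of Slfn9 occur in another Schlafen gene, for both most often in the pseudogene Slfn10-ps. The share was 8.16% for Slfn4, 7.39% for Slfn3, 4.27% for Slfn2, 0.606% for Slfn1 and 0 for Slfn5. How the authors treated reads that match several genes is not given in the sources used here, so the values of Slfn8, Slfn9, Slfn3 and Slfn4 are the least certain.

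Genes on either side of the cluster were compared with it. Of 14 neighbouring or related genes followed here 9 were tested, and none passed in edgeR. The lowest adjusted p was 0.90 at 6 weeks and 0.25 at 12 weeks, with 0 genes at an unadjusted p under 0.05 at 6 weeks and 1 at 12 weeks. They were Lig3, Rffl, Rad51d, Fndc8 and Nle1 on the Slfn5 side, Ap2b1, Mmp28 and Taf15 on the Slfn3 side, and the pseudogene Slfn10-ps inside the cluster. Their log2 fold changes ranged from -2.0 to 0.31 at 6 weeks and from -2.15 to 1.84 at 12 weeks. Rasl10b, Gas2l2, Unc45b, Slfn14 and Slfnl1 had too few counts to test. Rad51d, a gene of homologous recombination, had a log2 fold change of 0.04 ± 0.58 at 6 weeks and 0.13 ± 0.59 at 12 weeks. Rffl, a ubiquitin ligase gene with many counts, had -0.36 ± 0.24 at 6 weeks and 0.49 ± 0.24 at 12 weeks.

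**Figure D4:**
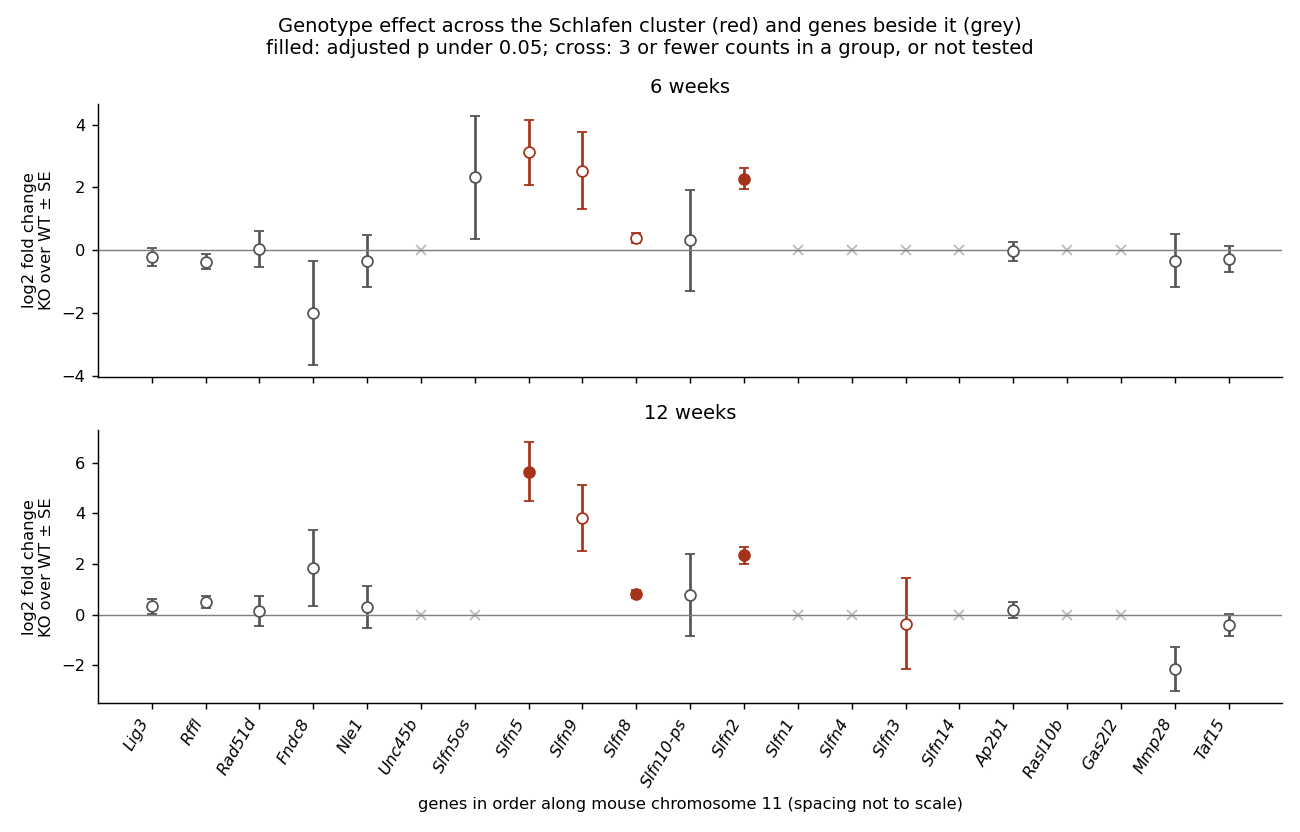
Log2 fold change of KO over WT with its standard error for the genes named here in their order along mouse chromosome 11, Schlafen members in red and other genes in grey, at 6 weeks (top) and 12 weeks (bottom). Filled points, which passed the test, occur only at Slfn2 at 6 weeks and at Slfn5, Slfn8 and Slfn2 at 12 weeks, and crosses mark genes with 3 or fewer counts in a group or not tested.

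Interferon genes were followed beside the members. Of 15 signalling components tested, 2 rose in KO at 6 weeks, where 0.796% of all tested genes rose. At 12 weeks 4 rose, where 2.03% of all tested genes rose, or 3 without 12-week WT libraries 3 and 8. None was lower at either age. Irf7 averaged 48.0 ± 10.8 CPM in 6-week KO and 7.12 ± 2.94 CPM in 6-week WT (log2 2.77 ± 0.56, edgeR adjusted p = 0.027), and 99.2 ± 60.8 CPM in 12-week KO and 2.43 ± 1.82 CPM in 12-week WT (log2 5.37 ± 0.63, adjusted p = 0.00015). The call of Irf7 at 6 weeks was lost in 7 of 24 alternative fits. Irf9, the DNA-binding part of that complex, rose at 12 weeks (log2 0.92 ± 0.16, edgeR adjusted p = 0.0040) and had 0.58 ± 0.16 at 6 weeks with an adjusted p of 0.15. The median log2 fold change of the 15 was 0.16 at 6 weeks and 0.52 at 12 weeks, where the median of all tested genes was -0.02 and -0.03.

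Of 29 interferon-stimulated genes tested, 10 rose in KO at 6 weeks, where 0.796% of all tested genes rose. At 12 weeks 20 rose, where 2.03% of all tested genes rose, or 15 without 12-week WT libraries 3 and 8. None fell at either age. The median log2 fold change of the 29 was 3.28 at 6 weeks, with 3 genes without a WT count set to their bound. It was 4.22 at 12 weeks, with 5 such genes. Slfn5 lay above that median at 12 weeks, and Slfn2, Slfn8 and Slfn9 lay below it at both ages. At 12 weeks Rtp4, a chaperone of membrane receptors, averaged 217 ± 86.6 CPM in KO and 17.7 ± 4.72 CPM in WT. Ifitm3, a membrane protein that blocks viral entry, averaged 111 ± 53.7 CPM in KO and 5.85 ± 2.64 CPM in WT. Xaf1, an interferon-induced gene of cell death, averaged 56.9 ± 23.2 CPM in KO and 10.2 ± 1.48 CPM in WT. The list was chosen with earlier results of these data known, so its direction is not independent support. Its genes without a WT count at an age were also kept for testing through their KO libraries, which fixed their direction there. Some others with few WT counts were kept in the same way.

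Genes of processes in which Schlafen proteins take part were counted too. None of 13 tested genes of tRNA handling and ribosome stress passed at either age in edgeR, with 1 at an unadjusted p under 0.05 at each age. None of 15 genes of the replication stress response did, with 3 at an unadjusted p under 0.05 at 6 weeks and 2 at 12 weeks. Of 20 proliferation genes 3 rose at 6 weeks, where 0.796% of all tested genes rose. At 12 weeks 2 rose, where 2.03% of all tested genes rose, or 1 without 12-week WT libraries 3 and 8. None of the 20 fell. At an unadjusted p under 0.05 there were 10 at 6 weeks and 12 at 12 weeks, where 7.31% and 14.4% of all tested genes passed. The log2 fold change was positive for 20 genes at 6 weeks and 19 at 12 weeks, with medians of 1.78 and 2.01. The genes called at 12 weeks were Bub1, a checkpoint kinase of mitosis, and Top2a, a topoisomerase of dividing cells. Bub1 averaged 13.7 ± 4.44 CPM in 12-week KO and had 0 counts in 12-week WT, a call lost without those 2 libraries (edgeR adjusted p = 0.11). It had 6 counts in 6-week WT and was kept for testing through its KO libraries. Its place in these counts is therefore not independent support. Top2a averaged 47.0 ± 15.3 CPM in 12-week KO and 14.1 ± 7.98 CPM in 12-week WT, a call lost in 14 of 24 alternative fits.

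Across the 16 libraries, the 5 genes whose log2(CPM + 1) had the highest Pearson r with each member were listed among 11200 genes with a mean of at least 5 CPM. The libraries share genotype and age groups, so these r are descriptions. For Slfn2 they were Ifi204 (0.953), Rtp4 (0.9497), H2-K1 (0.946), Ccl2 (0.944) and Gm9625 (0.942). For Slfn5 they were Zbp1 (0.925), Ifit3b (0.913), Ms4a4c (0.909), Pdcd1 (0.906) and Tubb6 (0.905). For Slfn8 they were Lsp1 (0.870), Irf9 (0.866), Ifi206 (0.865), Cdca2 (0.859) and H2-M3 (0.858). For Slfn9 they were Glb1 (0.912), Ms4a4c (0.905), Psap (0.896), Mpeg1 (0.891) and Cd163 (0.887). Between members r ranged from 0.633 for Slfn8 and Slfn9 to 0.857 for Slfn5 and Slfn9. With Irf7 it was 0.904 for Slfn5, 0.832 for Slfn9, 0.819 for Slfn2 and 0.744 for Slfn8.

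Summed markers of border-associated macrophages and of monocytes moved with genotype beside the Schlafen genes. The sums of the other lists given here overlapped between KO and WT at both ages. All 8 markers of border-associated macrophages, which line brain vessels and meninges, were read in every group. They summed to 136 to 295 CPM in 6-week KO and 51.1 to 95.8 CPM in 6-week WT, and to 112 to 189 CPM in 12-week KO and 7.79 to 55.1 CPM in 12-week WT, with no overlap. Of the 8, none passed at 6 weeks and 1, Ms4a7, rose at 12 weeks, a call lost in 9 of 24 alternative fits. Without 12-week WT libraries 3 and 8 the sum was 47.9 to 55.1 CPM in 12-week WT, and Ms4a7 had an adjusted p of 0.10. The 7 monocyte markers summed to 47.2 to 139 CPM in 6-week KO and 24.2 to 41.9 CPM in 6-week WT, and to 44.3 to 90.5 CPM in 12-week KO and 1.08 to 37.0 CPM in 12-week WT, or 22.0 to 37.0 CPM without libraries 3 and 8. Of these, Ly6c2 and Chil3 had no count in either KO group. The 5 erythroid markers summed to 13.2 to 110 CPM in 12-week KO and 2.38 to 34.2 CPM in 12-week WT. At 6 weeks these summed to 2.45 to 55.1 CPM in KO and 9.71 to 50.3 CPM in WT. The 11 markers of neurons, astrocytes and oligodendrocytes summed to 136 to 338 CPM in KO libraries and 194 to 365 CPM in WT libraries. Neutrophil markers had group medians of at most 0.533 CPM, with 1 library of 6-week WT at 62.3 CPM, and T and NK cell markers stayed between 0 and 10.97 CPM in every library. The 6 B cell markers, Ighm among them, summed to 974 to 1165 CPM in KO libraries and 1010 to 1230 CPM in WT libraries. The part of border-associated macrophages and monocytes in the Schlafen levels was not tested.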

How the data were processed

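RNA of sorted mouse microglia was sequenced in 16 libraries, 4 for each of 4 groups of genotype and age. Per library, the authors deposited unnormalized counts by gene, and a deposited table of the whole series held equal values for all 36935 symbols compared. The submitters' processing notes list build GRCm39 and the tools TopHat, HTSeq 0.11.0, cutadapt 2.10, FastQC 0.11.9, Picard 2.13.2 and SAMtools 1.10. Which annotation release was used, whether strand was read and how ambiguous reads were treated is not given in the sources used here.

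Analysis used R 4.3.3, edgeR 4.0.16, limma 3.58.1, DESeq2 1.42.0 and Python 3.11.15. Genes were kept with filterByExpr at a minimum count of 10, which left 17090. Libraries were scaled by TMM, and a quasi-likelihood model with a term for each group and for sex was fitted to all 16 libraries. It was tested on simulated data with changes set in 12-week KO for genes averaging above 5 CPM. There 72% of genes with a log2 change of 2 were recovered, and 98% of those with a change of 4. Of unchanged genes 0.0249% were called. Smaller changes, and changes in genes with fewer counts, were not simulated. The common dispersion was 0.421. The 5 comparisons were KO against WT at each age, 12 against 6 weeks in each genotype, and the difference of the genotype effects. Log2 fold changes carry an approximate standard error, their size over the root of F. Where a group had 0 counts, a floor of 3 counts per group took its place, and counting intervals have a confidence level of 0.95. With 7882182 to 22142972 counts per library, the floor of 1 library was 0.132 to 0.376 CPM. Without molecular identifiers, PCR copies are not independent molecules, so these cover counting error only. Exon lengths, gene order and shared windows are from GENCODE M21, and promoter windows from RefSeq.

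Genes named are the 7 members, Ercc1, Irf7, Irf9, the genes beside the cluster, up to 3 called genes with the smallest adjusted p of each other list at 12 weeks, and the 5 genes most like each member. A few genes that this rule would name, 1 of them beside the cluster, are not reported here. The members, lists, rules and alternatives were chosen with earlier results of these data known. Alternatives were DESeq2, limma-voom, RLE size factors, no filter, no sex term, the replicate block, the 8 libraries compared alone, and fits without single libraries.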

Additional observations from a re-analysis of the deposited data

Results flagged for a closer look

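Of 22 combinations of a member and a group with any count, 5 had 1 library far from the other three of its group by Dixon's ratio, taken at its 95% critical value. Chance flags about 5% of groups of normally distributed values. This rate does not hold for groups with several libraries at 0, such as those of Slfn3. Slfn9 gave 3 of these. It had 28.05 CPM in replicate 3 of 6-week KO, 7.19 CPM in replicate 2 of 6-week WT and 5.22 CPM in replicate 4 of 12-week WT, each the highest of its group. Slfn3 gave the other two, with 1.89 CPM in the 12-week WT library numbered 5_6 and 0.114 CPM, a single count, in replicate 2 of 6-week WT.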

How the results depend on the processing

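Slfn2 kept its direction and its call at 6 weeks in all 24 alternative fits (adjusted p at most 0.019), and at 12 weeks in 23. With no filter on low counts 4 members were called at 6 weeks and 5 at 12 weeks, with DESeq2 2 at 6 weeks and 1 in 12-week against 6-week KO. Leaving out each library gave 1 member at 6 weeks and 3 to 4 at 12 weeks. With the replicate block 1 member was called at 6 weeks and 0 at 12 weeks (adjusted p = 0.096 for Slfn2, 0.078 for Slfn5 and 0.21 for Slfn8), and the 12-week groups share only 2 numbers. Same-numbered libraries of the groups compared had correlations of -0.023 to 0.070 in their deviations from the group means. Between 6-week KO and WT, numbers 1, 3 and 4 correlated best with their own number (0.047, 0.070 and 0.019), and number 2 did not. The sexes match by number at that age. Between the 12-week groups neither shared number did so. The numbers were not taken to pair the libraries, although a pairing at 6 weeks remains possible. In the block fit Irf9 at 12 weeks had an adjusted p of 0.26. The difference of the genotype effects turned round for Slfn2 with the block (-0.059), without 12-week WT libraries 3 and 8 (-0.21) and in 5 fits without 1 library (range over all such fits -0.11 to 0.29), and for Slfn9 with the block (-0.69) and without 6-week WT replicate 2 (range -0.049 to 6.46), each with an adjusted p of 0.993 or 1. The cause was not tested. Of the 5 genes most like each member by Pearson, Spearman's top 5 shared 1 for Slfn2, 2 for Slfn5, 1 for Slfn8 and 0 for Slfn9. DESeq2 gave no adjusted p for Slfn1 at 6 weeks. The depth limits Slfn1, Slfn3 and Slfn4, whose counts are few or 0.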

Other observations

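Slfn10-ps, a pseudogene between Slfn8 and Slfn2, averaged 4.60 ± 5.97 CPM in 12-week KO and 2.70 ± 3.18 CPM in 12-week WT, and 4.68 ± 3.23 CPM in 6-week KO and 3.92 ± 1.86 CPM in 6-week WT. It had no count in 2 of 4 libraries of each 12-week group. Slfn14, which lies beyond Slfn3, had 8 counts in 1 library of 12-week WT and none in the other libraries.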
